A study of Mus musculus with 46 samples.

Results

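Disruption of Arid1b was examined in mouse synovial sarcomas (SyS) driven by SS18::SSX2, a background named hSS2. Titles assigned the tumors to groups, and no measured value was used. The 8 tumors labelled SSM2;ARID1B (hSS2 Arid1b-fl) were set against the 13 labelled SSM2 (hSS2 control), so that 21 of the 46 tumors of the series entered the comparison. Every mouse of both groups expressed the human fusion gene SS18::SSX2, and the Arid1b-fl mice also carried floxed Arid1b alleles (Arid1b fl/fl in the study's methods). In both groups TATCre, a cell-permeable Cre protein, was injected into a limb at 8 days of age. Each library is labelled as total RNA of a tumor of a separate mouse. No tissue-specific promoter limits this Cre. It acts on cells near the injection, and a bulk tumor also holds host cells that never took it up, with Arid1b intact. Tumors with floxed Arid1a (8 tumors, hSS2 Arid1a-fl) and floxed Pbrm1 (8 tumors, hSS2 Pbrm1-fl) on the same hSS2 background entered only where stated.

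ARID1B is a subunit of the canonical BAF complex (cBAF), an ATP-dependent chromatin remodeler that slides and ejects nucleosomes at enhancers and promoters. Each cBAF complex holds either ARID1A or ARID1B, encoded by paralogous genes, and these subunits join the ATPase module to the core. The PBAF complex uses ARID2 with PBRM1 in place of either of them, and the GBAF complex has BRD9 with BICRA or BICRAL and no ARID subunit. SS18 is a member of cBAF and GBAF, so the SS18::SSX oncoprotein of synovial sarcoma is built into both.

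The study describes the Arid1b allele as a conditional deletion of exon 5. In GENCODE M21 (GRCm38) exon 5 lay at chr17:5242828-5243071 on the plus strand, 244 bases long and 1 base longer than a whole number of codons, in 4 of 4 coding transcripts. Its sequence is shown because it is the part of the gene that recombination removes, and the joined sequence because it shows the reading frame that would be left. In the first line capitals mark exon 5, with the last 21 bases of exon 4 before it and the first 21 bases of exon 6 after it. In the second line exon 4 runs directly into exon 6, and capitals mark the first stop codon in frame.
Arid1b exon 5 with its flanks: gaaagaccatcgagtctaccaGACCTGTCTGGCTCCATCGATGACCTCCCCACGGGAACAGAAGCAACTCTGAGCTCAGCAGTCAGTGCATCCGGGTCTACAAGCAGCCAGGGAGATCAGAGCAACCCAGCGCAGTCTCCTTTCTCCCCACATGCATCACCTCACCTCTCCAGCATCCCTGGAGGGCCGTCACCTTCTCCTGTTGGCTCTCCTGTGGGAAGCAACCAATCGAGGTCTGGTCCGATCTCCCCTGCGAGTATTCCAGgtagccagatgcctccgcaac
Arid1b exon 4 joined to exon 6: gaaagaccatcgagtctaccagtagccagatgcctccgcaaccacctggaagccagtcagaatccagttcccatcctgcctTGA
Read from the transcript Arid1b-202, the joined frame ended 63 bases past the joint, after 641 codons in place of 2244. Exon 5 made up 2.15% of the 11325 bases of that transcript. The deposited counts sum all exons of a gene, so they cannot show whether exon 5 was absent. An Arid1b count reports the amount of transcript from the locus, intact or recombined. In a bulk tumor, fewer cells of a type and less RNA per cell cannot be told apart, and this holds for every level below.

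Total counts per library ranged from 13903950 to 21294657 (median 15630490) in Arid1b-fl and from 13488206 to 19443555 (median 16784331) in control tumors. The mouse numbers in the titles split the groups. All 8 Arid1b-fl mice were numbered 1000 to under 2000, whereas 5 control mice were numbered under 1000, 4 in the same range as the Arid1b-fl mice (replicates 5 to 8) and 4 at 2000 and over. Each comparison was therefore also made against those 4 control tumors. The 8 markers of SyS cells were detected in every one of the 21 tumors, and their summed level (705 to 1266 in Arid1b-fl and 859 to 1782 in control tumors) is in CPM, counts divided by the scaled library total and multiplied by 1000000. Markers of skeletal muscle summed to between 11.8 and 47040 CPM in Arid1b-fl and between 17.4 and 49217 CPM in control tumors, a spread wider within each group than between them. The library labelled hSS2 control replicate 9 had 238 CPM of Arid1a, inside the 229 to 276 CPM of the Arid1a-fl tumors, which goes against its label, and was kept as labelled. Control replicates 2, 3 and 7 held RNA of both Xist (655 CPM or more) and Y-linked genes, and the genes called were also counted without these 3 control tumors. Control replicates 11 and 12 held Y-linked RNA with less Xist (187 and 247 CPM) and were kept in that repeat. Whether those libraries hold RNA of more than 1 mouse was not tested.

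One library stood apart. Arid1b-fl replicate 5, from mouse 1809, held 55 genes at over 4 times their level in every other hSS2 library, against 0 to 18 such genes in each of the other 36. Platelets carry receptors for collagen, fibrinogen and von Willebrand factor, and their 14 markers summed to 1868 CPM in replicate 5. The sum was 8.98 to 26.9 CPM in the other Arid1b-fl tumors and 9 to 25.5 CPM in control tumors, and all 14 markers were highest in replicate 5 among the 21 libraries. Among them Ppbp, a platelet chemokine, stood at 380 CPM in replicate 5 and at most 0.634 CPM elsewhere, and Gp9, part of the von Willebrand factor receptor, at 90.2 against at most 0.173 CPM. Red cell markers (hemoglobin chains, Alas2 and others) summed to 47928 CPM in replicate 5, 25.5 to 79 CPM in the other Arid1b-fl tumors and 30.4 to 1907 CPM in control tumors. The sum of the SyS cell markers was lowest there, at 705 CPM, but its members did not move together. Pdgfra (213 CPM) and Twist1 (53.1 CPM) were below every other tumor of the 21. Sox2 (52.9 CPM) and Bcl2 (41.7 CPM) were above the median of the other 20 (39.2 and 36.7 CPM). Tle1, Penk, Nnat and Cd99l2 lay inside the range of the other 20. Whether replicate 5 held fewer tumor cells was not tested. Macrophage markers summed to 925 CPM in replicate 5, at most 540 CPM in the other Arid1b-fl tumors and at most 701 CPM in control tumors, with 4 of 8 markers highest in replicate 5. Smooth muscle and pericyte markers summed to 982 CPM there and at most 298 CPM in the other 7, but reached 1114 CPM in control tumors. The genes called were therefore also counted without this library, and other counts below were repeated without it where stated.

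**Figure D1:**
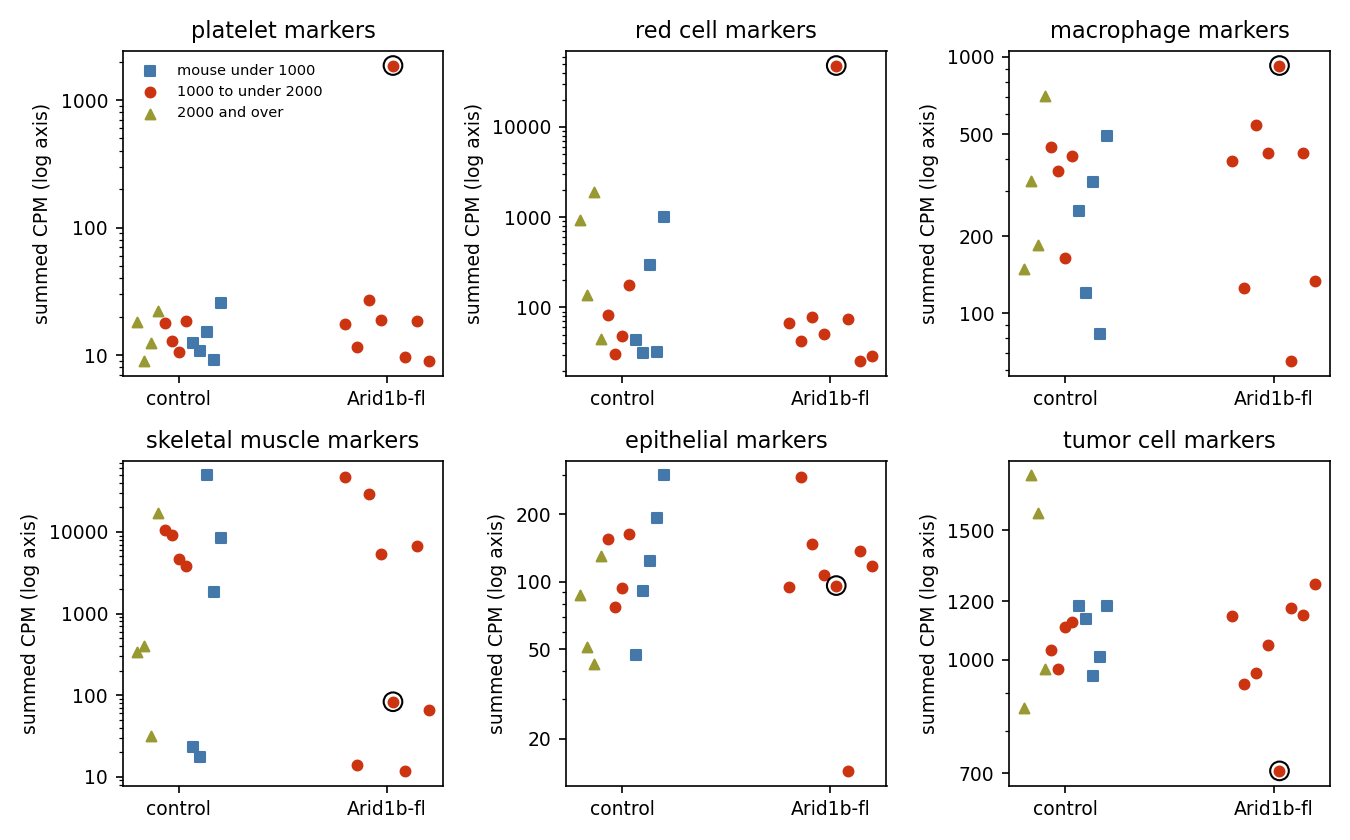
Summed level (CPM, log axis) of marker genes of 6 cell types in each of the 13 control and 8 Arid1b-fl tumors, 1 point per tumor, with shape and color for the range of mouse numbers. The circled point is Arid1b-fl replicate 5, at 1868 CPM of platelet and 47928 CPM of red cell markers. Its sum of tumor cell markers was the lowest, 705 CPM, although Sox2 and Bcl2 of that list were not low there. Skeletal muscle markers spread from 11.8 to 47040 CPM in Arid1b-fl and from 17.4 to 49217 CPM in control tumors.

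The targeted gene was first examined in every tumor. Arid1b (chr17:4994332-5347656, plus strand) stood at 219, 291, 153, 347, 129, 117, 232 and 111 CPM in Arid1b-fl replicates 1 to 8. In control tumors its lowest, median and highest levels were 222, 323 and 686 CPM, and in the 4 of the same mouse number range 307, 222, 427 and 331 CPM. Replicates 3, 5, 6 and 8 formed the low end, replicates 2 and 4 lay among the control tumors, and the groups overlapped: 5 of 8 Arid1b-fl tumors were below every control tumor, while 9 of 13 control tumors did not exceed the highest tumor with floxed Arid1b. The 2 groups differed by -0.80 on the log2 scale (SE 0.19, 95% interval -1.18 to -0.43), which corresponds to 0.573 times the control level. With p = 0.000115 and an adjusted p of 0.145 in edgeR's quasi-likelihood test with Benjamini-Hochberg adjustment over 20083 genes, the difference did not pass the threshold of 0.05.

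That call turned with the tool and with single libraries, whereas the direction held under all 32 alternatives run for this gene (log2 fold change -0.96 to -0.63). The DESeq2 Wald test, over the same 20083 genes as edgeR and with all tumors kept, called Arid1b lower (-0.81, adjusted p 0.0214). Without replicate 5 the DESeq2 test did not call it (-0.74, adjusted p 0.0605). DESeq2 was not run on the 21 compared libraries alone. In edgeR the adjusted p was 0.0462 without Arid1b-fl replicate 2 and 0.015 without replicate 4, the high floxed tumors, and 0.474 without replicate 5. Against the 4 control tumors of the same mouse number range the difference was -0.70 (95% interval -1.38 to -0.01, p = 0.0462, adjusted p 0.999). With the range as a term in the edgeR fit it was -0.69 (unadjusted p = 0.00721), which did not pass the threshold after adjustment. How far the remaining Arid1b transcript came from recombined cells and how far from host cells was not tested.

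**Figure D2:**
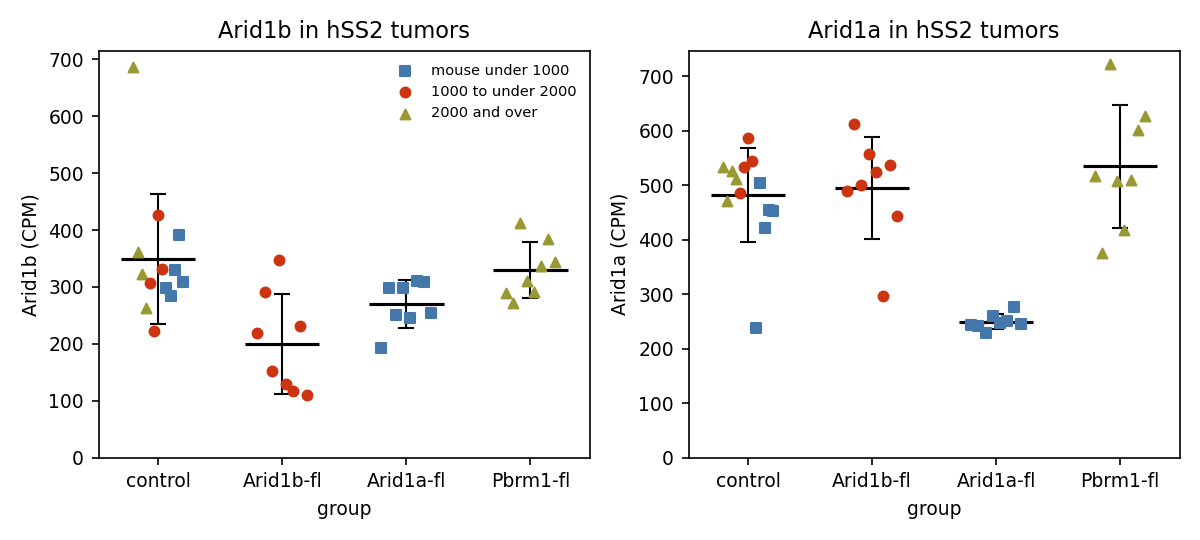
Arid1b and Arid1a levels (CPM, axes from 0) in each of the 37 hSS2 tumors by group, 1 point per tumor, with shape and color for the range of mouse numbers and bars for mean ± SD. Arid1b ran from 111 to 347 CPM in Arid1b-fl tumors, overlapping the control tumors, whereas Arid1a in Arid1b-fl tumors (297 to 612 CPM) lay over the control range and above every Arid1a-fl tumor (229 to 276 CPM).

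Arid1a, the alternative cBAF subunit, was not detectably higher or lower where Arid1b was floxed. Arid1a (chr4:133679008-133756769) stood at 489, 612, 500, 557, 524, 297, 538 and 444 CPM in Arid1b-fl replicates 1 to 8, and its lowest, median and highest control levels were 238, 505 and 587 CPM. Replicate 6 was the low tumor and the others lay within or just above the control range. The log2 fold change was 0.04 (SE 0.12, 95% interval -0.21 to 0.29, adjusted p 0.992), and -0.13 (95% interval -0.48 to 0.21) against the control tumors of the same range. A rise of Arid1a beyond 0.29 on the log2 scale thus lay outside the first interval, and smaller changes in either direction could not be told from none with these tumors. Without control replicate 9 the estimate was -0.04.

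To compare the paralogs with each other, levels were taken per kilobase of exon (RPKM, CPM divided by the length of all exons in kilobases). Arid1a was the more abundant of the pair in all 8 Arid1b-fl tumors. Its level was 25.9, 44.6 and 53.3 RPKM (lowest, median, highest) in Arid1b-fl tumors and 20.8, 44 and 51.1 RPKM in control tumors. Arid1b stood at 8.78, 14.7 and 27.5 RPKM in Arid1b-fl and 17.6, 25.6 and 54.4 RPKM in control tumors. The ratio of Arid1b to Arid1a per length was 0.225 to 0.566 (median 0.376) in the 8 Arid1b-fl tumors, 0.379 to 1.17 (median 0.619) in the 13 control tumors and 0.379 to 0.663 (median 0.564) in the 4 of the same range. Floxing Arid1a placed the ratio on the other side, at 0.716 to 1.13 (median 1.01) over 8 tumors. The Arid1a-fl tumors held 192 to 311 CPM of Arid1b (median 276), and Arid1b did not pass the threshold there either (log2 fold change -0.37 against control, SE 0.18, p = 0.0501, adjusted p 0.217). The difference in Arid1b between the floxed groups, Arid1b-fl minus Arid1a-fl, was -0.43 (SE 0.20, interval -0.84 to -0.03). Its unadjusted p in edgeR's quasi-likelihood test was 0.0378, and it did not pass the threshold (adjusted p 0.373). The unadjusted interval excluded 0, but single tumors overlapped, at 111 to 347 CPM against 192 to 311 CPM. The 2 floxed groups also share no mouse number range.

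The other subunit genes of the BAF family were compared one by one, grouped by the complex they belong to. Of 27 listed besides Arid1b, 26 passed the filter on low counts and Actl6b, a neuronal actin-like subunit, did not (at most 0.27 RPKM). None of the 26 was called by edgeR or by DESeq2, against 0.0548% of all 20083 genes called by edgeR, and 2 had an unadjusted p under 0.05, or 7.69% of the list against 6.22% of all genes. Their log2 fold changes ran from -0.23 to 0.28, with a median of 0.04 beside 0.0045 over all genes. Without replicate 5 the median was 0.04 with 1 gene at an unadjusted p under 0.05 (5.57% of all genes), and against the control tumors of the same range it was 0.03 with none (2.71% of all genes).

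Among the cBAF subunits, Dpf2, the ubiquitous double PHD finger subunit that reads acetylated histone tails, stood at 81.6, 90.2 and 100 CPM in Arid1b-fl and 68.5, 87.5 and 125 CPM in control tumors (lowest, median, highest), a log2 fold change of 0.02 (95% interval -0.14 to 0.17). Its paralogs Dpf1 (-0.23, interval -0.88 to 0.43) and Dpf3 (0.27, interval -0.29 to 0.82) were expressed at lower levels and with wide intervals. In the PBAF complex, Pbrm1, the bromodomain subunit, differed by 0.11 (interval -0.05 to 0.28), Arid2, its DNA-binding ARID subunit, by -0.08 (interval -0.33 to 0.18), Brd7 by 0.01 and Phf10 by -0.0027. In GBAF, the bromodomain subunit Brd9 differed by -0.09 (interval -0.22 to 0.05), and the alternative scaffolds Bicra and Bicral by 0.05 and 0.13. Each of these intervals, and those of Brd7, Phf10, Bicra and Bicral, included 0.

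The shared subunits held the smallest p-values of the family. Smarcd2, a core subunit of cBAF and PBAF, stood at 57, 66.4 and 106 CPM in Arid1b-fl and 46.4, 59.1 and 80.4 CPM in control tumors, and 2 of 8 Arid1b-fl tumors were above every control tumor. Its log2 fold change was 0.28 (95% interval 0.04 to 0.52, p = 0.0257, adjusted p 0.749). Smarca4, the ATPase Brg1, stood at 224, 258 and 363 CPM against 164, 230 and 267 CPM, with 4 of 8 above every control tumor (0.24, interval 0.0017 to 0.48, p = 0.0485, adjusted p 0.796). Against the 4 control tumors of the same range the Smarca4 difference was 0.06 and that of Smarcd2 0.29. The alternative ATPase Smarca2 (0.01), the core subunits Smarcb1 (0.13), Smarcc1 (0.16) and Smarcc2 (0.05) and mouse Ss18 itself (0.07, interval -0.12 to 0.26) did not pass either, with Ss18 at 131 to 188 CPM in Arid1b-fl and 126 to 167 CPM in control tumors. Ss18 counts come from the mouse gene, and reads of the human fusion that map to it cannot be told apart from them.

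**Figure D3:**
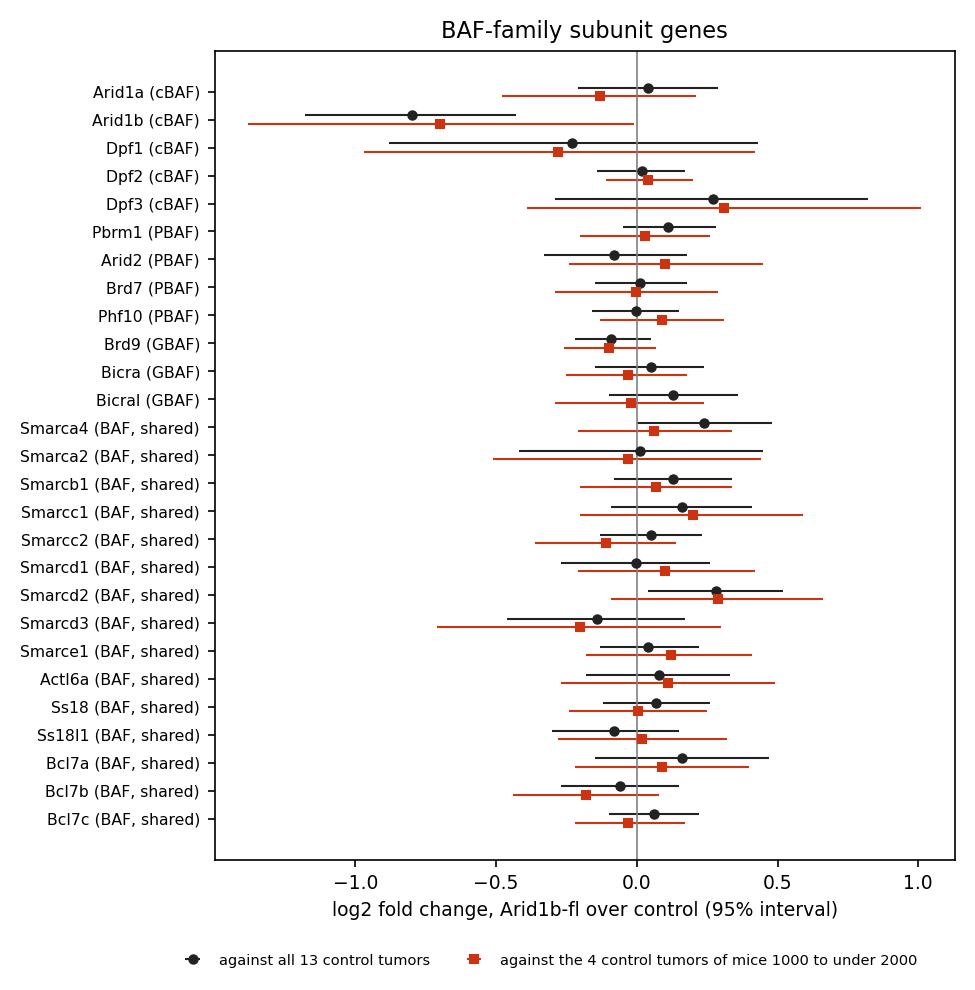
Log2 fold change of the 27 tested BAF-family subunit genes, Arid1b-fl over control, with 95% intervals, against all 13 control tumors (black circles) and against the 4 of mice numbered 1000 to under 2000 (red squares). Arid1b is the only gene whose interval lies wholly below 0 in both (-1.18 to -0.43 and -1.38 to -0.01), and the other 26 lie between -0.23 and 0.28 against all control tumors.

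Genes around the locus were also examined. Of the tested genes, 13 had their start within 1 Mb of Arid1b. None was called by edgeR or DESeq2, and 1 had an unadjusted p under 0.05, the pseudogene Gm15590 (log2 fold change 0.80, p = 0.00695, adjusted p 0.647). Over all genes 6.22% had such a p. Gm15590 stood at 4.49 CPM in its highest tumor, replicate 5, and at most at 1.5 CPM in the other 7, and without replicate 5 its value was 0.27 (p = 0.248). The 13 ran from -0.83 to 0.80 with a median of -0.11. Among the protein-coding neighbors, Tmem242 stood at 24.1 to 34.7 CPM in Arid1b-fl tumors and at 22.4 to 43.6 CPM in control tumors (median 25.9), and Tulp4 at 151 to 251 CPM against 183 to 247 CPM (median 204). Their ranges overlapped those of the control tumors. Against the control tumors of the same range 0 of the 13 had an unadjusted p under 0.05 (2.71% of all genes).

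Across the transcriptome few genes separated the groups. Of 20083 genes tested, 11 passed an adjusted p of 0.05, 5 higher and 6 lower in Arid1b-fl tumors (0.0548%), and 1250 had an unadjusted p under 0.05 (551 higher and 699 lower, 6.22%). Leaving out replicate 5 gave 6 of 20291 genes, all lower (0.0296%), and 1131 at an unadjusted p under 0.05 (5.57%). These 6 were the same 6 lower genes, in fits that also held the Arid1a-fl and Pbrm1-fl libraries. The fit of the 21 compared libraries alone called 3 of 19130 genes, all lower. In a repeat of that fit without replicate 5, added after seeing the data, 0 of 19329 were called. Against the 4 control tumors of the same range edgeR called 0 of 19325 genes (0%), with 524 at an unadjusted p under 0.05 (313 higher and 211 lower, 2.71%), and the fit with the range as a term also called 0, with 529. DESeq2 on all tumors called 15 genes, all lower, of which 6 were among the 11. Leaving out control replicates 2, 3 and 7, an alternative added after seeing the data, edgeR called the 6 lower genes and none of the 5 higher ones (6 of 19898 genes), and Arid1b differed by -0.80 (adjusted p 0.482). The higher and lower genes had unlike patterns over the tumors and are taken in turn.

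The 5 higher genes rested on replicate 5. Itgb3, integrin beta 3 of the platelet fibrinogen receptor, stood at 440 CPM in replicate 5, 1.5 to 7.22 CPM in the other Arid1b-fl tumors and 1.19 to 7.6 CPM in control tumors. With that library the groups differed by 4.37 on the log2 scale (SE 0.78, adjusted p 0.00869), and without it by 0.26 (adjusted p 0.999). Alox12, the platelet 12-lipoxygenase, stood at 160 CPM in replicate 5 and at 0.313 to 1.82 CPM in the other 7, against 0.264 to 1.3 CPM in control tumors (4.67, adjusted p 0.0101, and -0.31 without it). Gp1ba, the ligand-binding chain of the von Willebrand factor receptor, was at 48.9 CPM there and at most 1.37 CPM in the other 7 (4.19, adjusted p 0.0323, and 0.64 without it). All 3 were among the 14 platelet markers. Actg2, smooth muscle gamma actin, stood at 55.8 CPM in replicate 5 and at most 1.28 CPM in the other 20 tumors (4.87, adjusted p 0.0424, and 0.38 without it). The remaining gene, ENSMUSG00002075501, had no symbol in the annotation used and is named here after its values were seen, with 53.9 CPM in replicate 5 and 0.821 to 5 CPM in the other 7 (2.72, adjusted p 0.0321, and 0.79 without it). None of the 5 was called by edgeR without replicate 5, and DESeq2, which replaces outlying counts in groups of 7 or more, called none of them with the library kept. How much of this came from blood in the sample and how much from the tumor was not tested.

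The 6 lower genes were Gm40847, Gm9259, Gm48643 and Gm47437 on chromosome 12, Gm7993 on chromosome 5 and Gm6472 on the X chromosome. Gm40847 is annotated as a noncoding transcript and the other 5 as pseudogenes. Reads of such genes can be shared with near-identical copies, so their assignment is uncertain. All were weakly expressed, and all 8 Arid1b-fl tumors lay below the control median for each.

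Gm9259 (chr12:19824891-19830372, minus strand) had 2 counts in all, both in Arid1b-fl replicate 1, against 231 in the control tumors. Gm48643 (chr12:19865126-19865495, minus strand) had 3 counts, 1 in each of replicates 3, 4 and 7, against 270. Gm40847 (chr12:18853840-18906503, plus strand) had 1 count, in replicate 7, against 215. These counts come from libraries of at least 13903950 counts, so the 3 genes were at or near 0 in every Arid1b-fl tumor. Gm47437 (chr12:23800521-23800646) had 2 counts, both in replicate 1, against 150. As pooled CPM, the control level was 66.6 times the Arid1b-fl level for Gm9259 (95% counting interval 18.2 to 553), 51.9 times for Gm48643 (17.6 to 253), 124 times for Gm40847 (22 to 4920) and 43.3 times for Gm47437 (11.8 to 360). The intervals cover counting error only, not the spread between tumors. In edgeR's quasi-likelihood test the adjusted p-values were 0.0019, 0.0019, 0.00213 and 0.00231, and without replicate 5 they were 0.00554, 0.00554, 0.00675 and 0.00735. With so few counts in Arid1b-fl tumors, these genes passed the filter on low counts only through the other groups. They could thus be called only as lower, here or against Arid1a-fl tumors, and these p-values and ratios are given as descriptions.

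Gm7993 (chr5:95974240-95975623) and Gm6472 (chrX:152909505-152910155) had more counts. For Gm7993 the 8 Arid1b-fl tumors held 0 to 0.982 CPM (49 counts in all) and the control tumors 0.065 to 15 CPM (1412 counts), a difference of -4.08 on the log2 scale (SE 0.68, adjusted p 0.00299). Gm6472 stood at 0.496 to 1.38 CPM against 0.845 to 15.4 CPM, a difference of -2.53 on the log2 scale (SE 0.46, adjusted p 0.0101). Without replicate 5 these were -4.44 (adjusted p 0.00554) and -2.57 (adjusted p 0.0335).

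The low state of these genes was not particular to tumors with floxed Arid1b. Control replicates 6 (mouse 1403) and 8 (mouse 1296), both in the mouse number range of the Arid1b-fl tumors, shared it. Control replicate 6 had 0 counts of Gm9259, Gm47437, Gm48643 and Gm40847, 7 of Gm7993 and 20 of Gm6472, and control replicate 8 had 3, 3, 0, 0, 1 and 13. Control replicates 5 and 7, the other pair of that range, had 59 and 100 counts of Gm7993 and 96 and 95 of Gm6472, more than in any Arid1b-fl tumor. Control replicate 2 and Pbrm1-fl replicate 2 were low for Gm6472 alone, with 21 and 19 counts. Pbrm1-fl replicate 5 (mouse 2291) was low for all 6, with 0 counts of each of the 4 chromosome 12 genes, 3 of Gm7993 and 13 of Gm6472. No Arid1a-fl tumor was low for any of the 6. Their lowest counts there were 40 for Gm7993 and 80 for Gm6472. Against the 4 control tumors of the same range, Gm7993 differed by -2.57 and Gm6472 by -1.66 (adjusted p 0.999 for each), and the 4 chromosome 12 genes were too low to be tested. As pooled CPM, those 4 control tumors held 5.99 times the Arid1b-fl level of Gm7993 (4.33 to 8.42) and 3.15 times that of Gm6472 (2.52 to 3.95), against 16.6 and 5.74 times over all control tumors. For the chromosome 12 genes those 4 held 18.5 times the level of Gm9259 (4.51 to 162) and 22.3 times that of Gm48643 (7.07 to 113). For Gm40847 it was 26.4 times (4.06 to 1110) and for Gm47437 29 times (7.42 to 250). Control replicates 5 and 7 had 20 and 18 counts of Gm48643, 15 and 15 of Gm47437 and 12 and 3 of Gm40847. Of Gm9259, control replicate 7 had 15 counts, but control replicate 5 had 3, the same as control replicate 8. With no Arid1b-fl tumor outside this range, the floxed allele and whatever else the range stands for cannot be told apart except through these 4 control tumors.

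**Figure D4:**
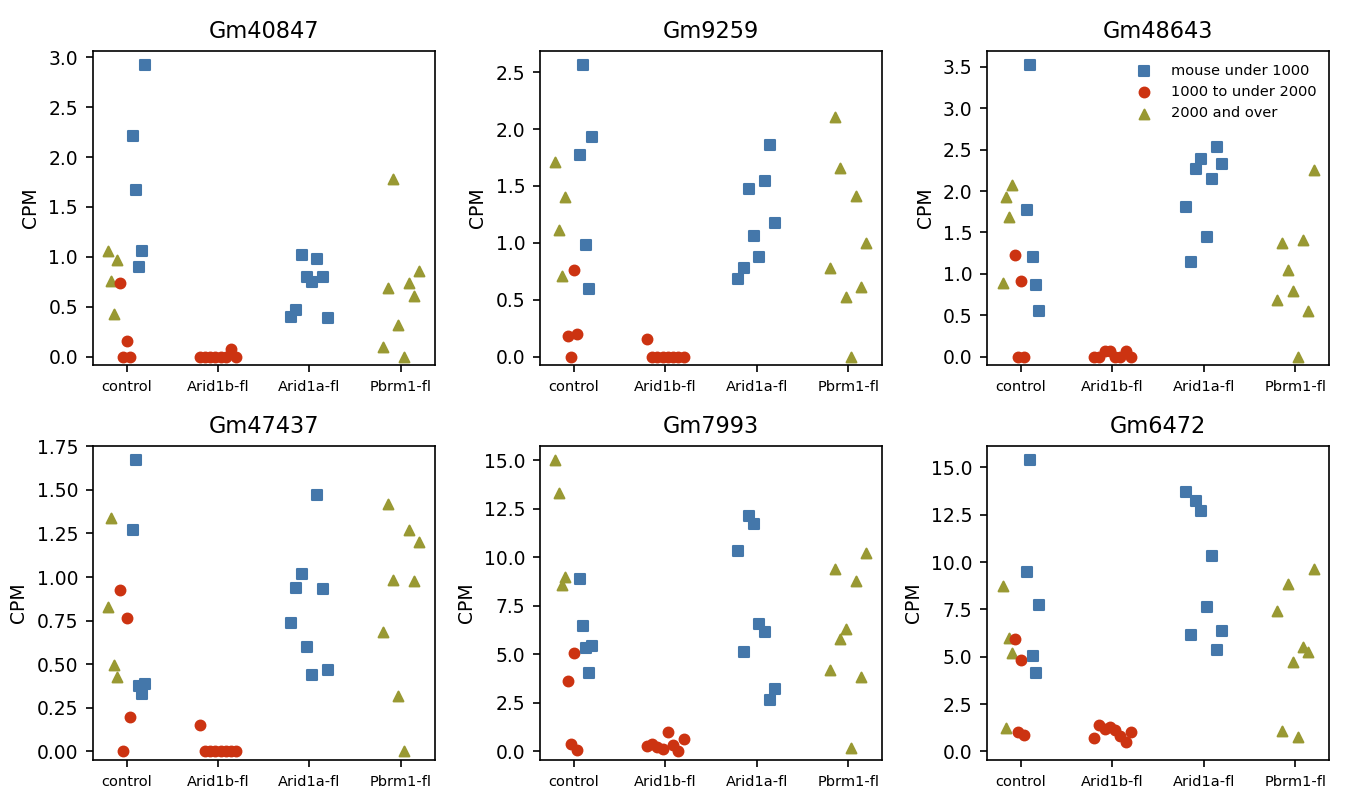
Level (CPM) of the 6 genes called lower in Arid1b-fl tumors, in each of the 37 hSS2 tumors by group, with shape and color for the range of mouse numbers. All 8 Arid1b-fl tumors lie at or near 0 for the 4 chromosome 12 genes, as do 2 of the 4 control tumors of their range and 1 Pbrm1-fl tumor, and no Arid1a-fl tumor does.

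Because 4 of the 6 lay between 18 and 25 Mb on chromosome 12, the tested genes of that window were listed. The window was chosen after the values were seen, so the counts are a description only. Of 51 tested genes, 4 were called and 17 had an unadjusted p under 0.05 (33.3%, against 6.22% over all genes), 7 higher and 10 lower. Only 2 of the 15 protein-coding genes were among the 17. Against the control tumors of the same range 6 of 44 had an unadjusted p under 0.05 (13.6%, against 2.71%). The noncoding gene 2410018L13Rik was on the other side, at 6.17 to 17.8 CPM in Arid1b-fl tumors against 0.292 to 11.5 CPM in control tumors (log2 fold change 2.15, SE 0.58, adjusted p 0.343), and its highest control tumor was replicate 8. The protein-coding gene 9030624G23Rik stood at 4.89 to 10.7 CPM against 0.973 to 6.43 CPM (1.17, adjusted p 0.404). The pseudogene Gm38699 stood at 0.047 to 1.14 CPM against 0.205 to 4.38 CPM (-2.67, adjusted p 0.102, and 0.00204 in DESeq2). The protein-coding gene 5730507C01Rik stood at 2.07 to 7.95 CPM against 0 to 7.47 CPM (1.24, adjusted p 0.854 in edgeR). Cys1 differed by 0.31 and Klf11 by -0.24. Asap2 (0.01), Adam17 (0.06) and Kidins220 (0.01) had values near 0, while Taf1b, a subunit of the RNA polymerase I factor SL1, differed by -0.30 (adjusted p 0.554).

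No protein-coding gene was called lower or higher by edgeR without replicate 5, so the 6 with the smallest p in each direction, among those that differed by at least 1 on the log2 scale, are given as values. On the higher side, Frzb, a secreted antagonist of Wnt ligands, stood at 23.7, 65.8 and 400 CPM in Arid1b-fl tumors (lowest, median, highest) and 11.6, 37.3 and 76.3 CPM in control tumors, and 3 of 8 were above every control tumor (log2 fold change without replicate 5 1.54, adjusted p 0.389). Cpz, a carboxypeptidase with a Frizzled-like domain, stood at 0.365, 1.32 and 11.4 CPM against 0, 0.356 and 1.02 CPM, with 5 of 8 above every control tumor (2.49, adjusted p 0.389). Both were highest in replicate 2, and the next highest Arid1b-fl tumors held 99.7 CPM of Frzb and 2.74 CPM of Cpz. Each of the other 4 genes also had 1 tumor well above the rest. Aldh1a3, a retinoic acid synthesis enzyme, reached 991 CPM in replicate 2 with a group median of 5.28 CPM, Ptger3, a prostaglandin E receptor, 86.5 CPM in replicate 8 (median 2.69), Cth, a cysteine synthesis enzyme, 16.7 CPM in replicate 8 (median 0.789) and Gm10800 54.1 CPM in replicate 6 (median 1.32). With all 8 Arid1b-fl tumors the log2 fold changes of Aldh1a3 and Gm10800 were 3.83 and 2.28, and without the tumor concerned -0.47 and -0.30.

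On the lower side, Mfsd2a, a transporter of lysophosphatidylcholine lipids, stood at 1.13, 2.05 and 4.14 CPM in Arid1b-fl tumors and 1.64, 7.58 and 26.8 CPM in control tumors, and all 8 lay below the control median. The difference was -1.90 on the log2 scale (SE 0.48, adjusted p 0.284) in edgeR and -1.91 (adjusted p 0.032) in DESeq2, and -1.36 against the control tumors of the same range. Car2, a carbonic anhydrase abundant in red cells, stood at 149 CPM in replicate 5 and at 0.25 to 1.97 CPM in the other 7, against 1.02 to 26.8 CPM in control tumors. Its log2 fold change was thus 1.57 with replicate 5 and -2.39 without it (adjusted p 0.653). Without replicate 5, Cfap54, an axonemal protein of motile cilia, differed by -2.47, Ccdc190 by -3.09, and the homeobox genes Gsc and Rax by -1.40 and -4.10, none past the threshold in edgeR, whereas DESeq2 called Cfap54 and Rax (adjusted p 0.0378 and 0.0304). With all tumors the edgeR values were -1.59 for Cfap54, -2.72 for Ccdc190, -0.84 for Gsc and -3.69 for Rax. Against the control tumors of the same range Cfap54 differed by -0.42, Ccdc190 by -1.46 and Gsc by -0.38, and Rax was too low to be tested. Control levels of the last 3 reached 14.9, 6.48 and 19.9 CPM, with medians of 1.1, 1.58 and 0.649 CPM.

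DESeq2 called 15 genes, all lower in Arid1b-fl tumors. They were the 6 genes above, Arid1b, Car2, Mfsd2a, Gm38699, Gm10699, Ttll8, Ifi202b, Mlc1 and Otx2os1. Several had a highest control tumor far above the control median. Mlc1, an astrocyte membrane protein, stood at 0 to 11.6 CPM in Arid1b-fl and 0.064 to 285 CPM in control tumors with a control median of 1.98 CPM (-4.60, adjusted p 0.0423 in DESeq2 and 0.534 in edgeR). Ttll8, a tubulin glycylase, stood at 0 to 1.32 CPM against 0 to 41.1 CPM with a control median of 1.38 CPM (-5.18, adjusted p 0.0328 in DESeq2 and 0.343 in edgeR). Without replicate 5 DESeq2 called 16 genes, 15 lower and 1 higher, a repeat chosen after seeing the data. Cfap54, Hal, Rax, Myo3b, Gm7451 and Gm10800 (the higher gene, 2.44) were called only in that repeat, and Arid1b, Ttll8, Ifi202b, Mlc1 and Otx2os1 only with the library kept.

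Gene groups tied to BAF function and to SyS were described by counts, beside the same counts over all genes (6.22% at an unadjusted p under 0.05, median log2 fold change 0.0045). No gene of the lists that follow was called by edgeR or DESeq2. The SAT genes, defined in companion work from single-cell data as transcribed in SyS cells and not in their cells of origin, numbered 185 with 184 tested. Of these, 10 were higher and 8 lower at an unadjusted p under 0.05 (9.78%), with a median of 0.03. Without replicate 5 the share was 7.61% against 5.57% of all genes, and against the control tumors of the same range 5.46% against 2.71%. For the MAT genes, transcribed in both, 353 of 371 were tested, with 7 higher and 12 lower (5.38%) and a median of -0.01.

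Among the SAT genes, Syne4, which links the nuclear envelope to kinesin, stood at 17.9, 28.2 and 62.6 CPM in Arid1b-fl and 3.21, 11.9 and 28.8 CPM in control tumors, and 3 of 8 were above every control tumor (log2 fold change 1.22, SE 0.33, adjusted p 0.343, and 1.03 against the same range). Nxph4, a secreted neurexin ligand, stood at 110, 168 and 280 CPM against 60.8, 102 and 223 CPM (0.52, SE 0.18, adjusted p 0.647). All 8 Arid1b-fl tumors lay above the control median for both. Lrp2, the endocytic receptor megalin, stood at 5.24, 8.05 and 29.7 CPM against 4.56, 18.5 and 444 CPM (-2.82, adjusted p 0.554, and -1.37 against the same range). Gp5, a platelet glycoprotein that is also on the SAT list, was at 30.2 CPM in replicate 5 and at most 2.63 CPM in the other 7 (1.81, and 0.22 without it). Among the MAT genes, Copa, a coatomer subunit, differed by 0.33 (SE 0.10, adjusted p 0.49), the tubulin glycylase Ttll3 by -0.56, Trappc6a by 0.55 and Cecr2, a bromodomain remodeling factor, by -0.82 (adjusted p 0.686). Against the same range Ttll3 differed by -0.29 and Cecr2 by -0.35.

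Polycomb complexes write H2AK119ub and H3K27me3 and oppose BAF at developmental genes. All 29 listed subunits and cofactors were tested, with 1 at an unadjusted p under 0.05 and a median of 0.01. That gene was Jarid2, a PRC2 cofactor, at 89.9, 136 and 225 CPM against 79.6, 102 and 195 CPM (0.33, SE 0.15, p = 0.0296, adjusted p 0.767). Bcor, a subunit of the noncanonical PRC1 complex, differed by 0.32 (p = 0.078) and Cbx7, a reader of H3K27me3, by -0.43 (p = 0.0772). The Wnt target list had 0 of 14 at an unadjusted p under 0.05 and a median of 0.02, with Sp5 at 4.62, 11.1 and 74.5 CPM against 4.13, 9.73 and 20.8 CPM (0.87, p = 0.0547). None of the 12 genes of the IGF axis, the receptors and binding proteins of insulin-like growth factors, had an unadjusted p under 0.05 against all control tumors (median 0.06). Against the same range 1 of 12 did (8.33%, against 2.71% of all genes). It was Igfbp2, an IGF binding protein, at 3.43 to 338 CPM in Arid1b-fl tumors, 0.792 to 89.5 CPM in all control tumors and 1.88 to 6.96 CPM in those of the same range. Its log2 difference was 1.35 against all control tumors, 3.87 against the same range (p = 0.015, adjusted p 0.999) and -0.03 against all without Arid1b-fl replicate 2, its highest tumor.

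The remaining lists had medians that moved when replicate 5 was left out. The 26 proliferation genes had a median of 0.11 with it and -0.10 without it, and 0 were at an unadjusted p under 0.05 in either fit. Mcm3, a replication helicase subunit, stood at 24.5 to 92.6 CPM against 7.59 to 74.8 CPM (0.52, adjusted p 0.85). The 10 AP-1 genes (Jun, Atf3 and partners) had a median of -0.08 with it and -0.38 without it, again with 0 at an unadjusted p under 0.05. In the interferon list 1 of 19 had an unadjusted p under 0.05, Rsad2, an antiviral enzyme, at 181 CPM in replicate 5 and 1.29 to 3.61 CPM in the other 7 (2.55, and -0.88 without it). The 17 matrix genes, collagens and their partners, had a median of 0.40 with it, 0.22 without it and 0.03 against the control tumors of the same range. Among them Col5a1 stood at 290, 400 and 674 CPM against 101, 235 and 580 CPM (0.67, SE 0.31, p = 0.0371, adjusted p 0.791). These medians are descriptions, and none was tested.

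**Figure D5:**
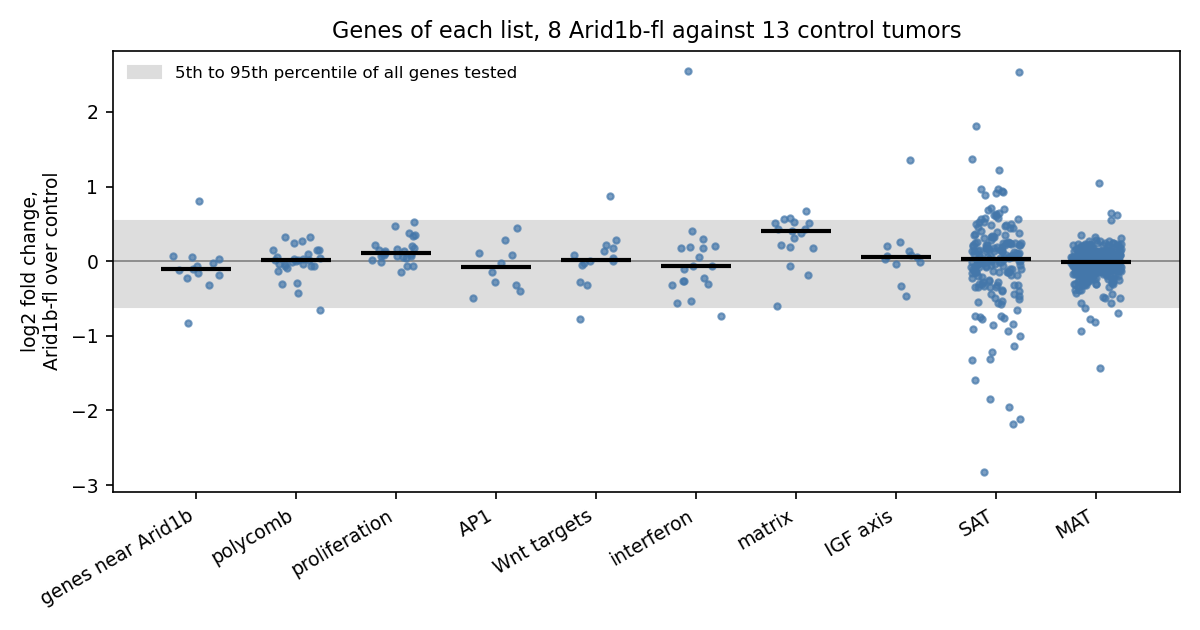
Log2 fold change, Arid1b-fl over control, of each tested gene of 10 lists, 1 point per gene, with a bar at the median of each list and gray shading from the 5 to the 95% point of all 20083 genes (-0.62 to 0.54). List medians lie between -0.11 (genes near Arid1b) and 0.40 (matrix genes), and the highest interferon point is Rsad2 at 2.55, which was -0.88 without replicate 5.

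Finally, Arid1b-fl was set directly against Arid1a-fl tumors, in which the other paralog is floxed. The contrast does not use the control tumors, but the groups share no mouse number range (all Arid1a-fl mice were numbered under 1000). Of 20083 genes, 20 differed (0.0996%), 6 higher and 14 lower in Arid1b-fl tumors, and 15 without replicate 5. With the range as a term edgeR called 0 of 20083, with 2238 at an unadjusted p under 0.05. Among the 26 other BAF subunits 1 was called, Arid1a itself, higher by 0.99 (SE 0.14, adjusted p 0.000176), with 297 to 612 CPM against 229 to 276 CPM and no overlap. All 6 lower genes described above were also called, in a contrast that uses the same 8 Arid1b-fl tumors and so is no independent repeat. Of the protein-coding genes, Slc27a2, a fatty acid transport protein, stood at 0.75, 2.09 and 5.19 CPM in Arid1b-fl and 0, 0.375 and 0.86 CPM in Arid1a-fl tumors (2.69, adjusted p 0.00801), and Cacna1b, a neuronal calcium channel subunit, at 3.21 to 11.4 against 0.933 to 2.95 CPM (1.65, adjusted p 0.0399, and 0.0555 without replicate 5). Car12, a carbonic anhydrase, stood at 0.365, 0.62 and 1.06 CPM against 0.729, 3.44 and 62.8 CPM (-4.18, adjusted p 0.00201), and Lrp8, a reelin receptor, at 13.4 to 71.1 against 13.3 to 4878 CPM with a median of 48.5 (-4.79, adjusted p 0.0134). For these 4 genes the difference between Arid1b-fl and control tumors was -0.06, 0.58, -0.15 and -0.59, none past the threshold. The proliferation list lay lower in Arid1b-fl than in Arid1a-fl tumors in 26 of 26 genes, with a median of -0.68, 4 at an unadjusted p under 0.05 (15.4%) and 0 called. The AP-1 list lay higher in 10 of 10, with a median of 0.93, 3 at an unadjusted p under 0.05 (30%) and 0 called. Over all genes of this contrast the share at an unadjusted p under 0.05 was 12.5% (2517 of 20083), and 9290 genes lay lower and 10793 higher. Genes of 1 list can rise and fall together over tumors, so their counts of direction are descriptions. Neither list was tested as a set.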

How the data were processed

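RNA was sequenced from 37 hSS2 tumors, and the values used were raw read counts per Ensembl gene as the authors deposited them in 1 table (56980 genes). Per the study's methods and the submitters' processing notes, paired-end reads of stranded, ribosomal RNA-depleted libraries were aligned with STAR 2.7.11 to mm10 and counted with featureCounts 1.6.3. Which annotation release and strand option were used, and how reads with several alignments were treated, is not given in the sources used here. The hSS1 table of the series was not used here. Groups and mouse numbers came from the titles, and libraries of the same group always differed beyond counting noise (lowest chi-square per degree of freedom 18.6 in Arid1b-fl and 32.1 in control). Symbols, positions, exon lengths and transcript sequences came from GENCODE M21, which named 91.5% of the genes.

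Counts were filtered with filterByExpr, scaled by TMM and tested with edgeR 4.0.16 (robust quasi-likelihood F-test, two-sided) in R 4.3.3, with 1 fit over the 37 hSS2 libraries and a coefficient per group. P-values were adjusted by Benjamini-Hochberg over all genes tested, with a threshold of 0.05, and the procedure was tested on simulated data. The simulated data held no outlying library and no difference by mouse number range, and the genes changed in them had means over 1 CPM. They therefore do not cover calls that rest on replicate 5, on genes near 0 or on the range. CPM use TMM-scaled library totals. Alternatives were DESeq2 1.42.0, its size factors in edgeR, no filter or at least 1 CPM in at least 8 libraries, an adjusted p of 0.01, the 21 libraries alone, the 4 control tumors of the same mouse number range, the range as a term, and each tumor left out in turn. Leaving out control replicates 2, 3 and 7 together, and 2 repeats without Arid1b-fl replicate 5, were added after seeing the data. The choice of this comparison, the lists and the rules for naming genes were made with earlier results of these data known. Named genes were BAF subunits, genes called with or without Arid1b-fl replicate 5, the 6 protein-coding genes in each direction with the smallest p without it (absolute log2 fold change at least 1, mean at least 1 CPM), up to 4 genes per list, genes within 1 Mb of Arid1b, and markers. Xist, Tsix and Y-linked genes were left out of the names. The SAT and MAT lists were defined in a companion paper from single-cell data and taken from the study's source data. Genes called by DESeq2 alone and genes of the chromosome 12 window were named after their values were seen. Depth was 13488206 to 21294657 counts per library in the 21 tumors compared, and ratios of pooled counts have exact intervals at 95% that cover counting error only.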

Additional observations from a re-analysis of the deposited data

Results flagged for a closer look

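Among 86 named genes, 20 had 1 Arid1b-fl tumor far from the other 7, as judged by its gap to the nearest tumor over the whole range of the group, both on the log2 CPM scale, set against Dixon's 95% critical value for 8 samples. Chance alone sets off about 1 in 20 groups, but many of the 86 were named for values that 1 tumor set, so the count of 20 cannot be read against that rate. Replicate 5, which carries the platelet and red cell markers, was the highest tumor for 8 of the 20, with gaps of 0.747 for Alox12, 0.73 for Itgb3, 0.584 for Gp1ba, 0.703 for Actg2, 0.712 for Car2, 0.8 for Rsad2, 0.762 for Gp5 and 0.582 for ENSMUSG00002075501. Replicate 6 was the lowest for Arid1a (0.557), Brd7 (0.652), Wif1 (0.713) and Irs2 (0.657) and the highest for Gm10800 (0.685). Replicate 8 was the highest for Ptger3 (0.558) and Cth (0.595), replicate 2 the highest for Aldh1a3 (0.697), and replicate 1 the lowest for Ifi44 (0.621). For Gm9259 and Gm47437 (replicate 1) and Gm40847 (replicate 7) the gap was 1, since the other 7 tumors had 0 counts.

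The difference between Arid1b-fl and Arid1a-fl tumors passed the threshold of edgeR's quasi-likelihood test with Benjamini-Hochberg adjustment for 8 of the same 86 genes. On the log2 scale, Arid1b-fl minus Arid1a-fl, it was 0.99 for Arid1a (adjusted p 0.000176), 5.01 for Alox12 (adjusted p 0.0425, and 0.02 without replicate 5), -3.23 for Gm6472 (0.000773), -4.21 for Gm7993 (0.00212), -5.62 for Gm9259 (0.000773), -5.11 for Gm47437 (0.00111), -5.96 for Gm48643 (0.000239) and -5.49 for Gm40847 (0.00736). None passed with the mouse number range as a term, where Arid1a differed by 0.61 (adjusted p 0.277).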

How the results depend on the processing

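The 11 genes called became 6 at an adjusted p of 0.01, 3 in the fit of the 21 libraries alone (0 without replicate 5 as well, added after seeing the data), 27 with no filter on low counts, and 0 with the mouse number range as a term, against the control tumors of the same range, or with that choice and replicate 5 left out together. Leaving out each tumor in turn gave 6 (without Arid1b-fl replicate 5) to 15 genes, and DESeq2 called 15. Without control replicates 2, 3 and 7, also added after seeing the data, 6 genes were called, and Dpf2 was -0.02, Brd7 -0.02 and Igf1r -0.01. The 20 genes differing from Arid1a-fl tumors became 0 with the range as a term. The Arid1b difference ran from -0.96 to -0.68 over the tumors left out in turn and was -0.81 in DESeq2, where it was called. Arid1a, at 0.04, was -0.13 against the control tumors of the same range, -0.14 with replicate 5 also left out, -0.12 with the range as a term, and -0.04 to 0.12 over the tumors left out. No paired analysis was possible because the mouse numbers are unique and the study's use of littermate controls is not given per tumor in the sources used here. The remaining values that changed sign passed the threshold in no alternative but DESeq2, where Car2 did. Against the control tumors of the same range they were 0.10 for Arid2, -0.0044 for Brd7, 0.09 for Phf10, -0.03 for Bicra, -0.02 for Bicral, -0.03 for Smarca2, -0.11 for Smarcc2, 0.10 for Smarcd1, 0.02 for Ss18l1, -0.03 for Bcl7c, -0.03 for E2f1 and -0.18 for Irf9. With replicate 5 also left out they were 0.07 for Arid2, 0.12 for Phf10, -0.02 for Bicra, -0.01 for Smarca2, -0.06 for Smarcc2, 0.09 for Smarcd1, 0.03 for Ss18l1, -0.02 for Bcl7c, 0.04 for Rbbp7, -0.05 for E2f1, -0.20 for Irf9, -0.65 for Alox12, -1.06 for Car2, -0.25 for Rsad2 and -0.17 for Gp5. With the range as a term they were 0.12 for Arid2, 0.10 for Phf10, -0.02 for Bicra, -0.01 for Bicral, -0.02 for Smarca2, -0.10 for Smarcc2, 0.12 for Smarcd1, 0.03 for Ss18l1, -0.01 for Bcl7c, 0.01 for Rbbp7, -0.02 for E2f1 and -0.17 for Irf9. The stricter filter gave -0.0028 for Dpf2, -0.01 for Brd7 and -0.0026 for Smarca2, and no filter gave 0.01 for Phf10 and 0.01 for Smarcd1. In DESeq2, which replaces outlying counts, Alox12 was -0.31, Aldh1a3 -0.49, Car2 -2.20 (adjusted p 0.0423) and Rsad2 -0.85. In the repeats without replicate 5 added after seeing the data, DESeq2 gave 0.02 for Phf10, -0.31 for Alox12, -0.62 for Aldh1a3, -2.37 for Car2 and -0.88 for Rsad2, and the fit of the remaining 20 libraries 0.02 for Phf10, -0.29 for Alox12, -2.36 for Car2 and -0.87 for Rsad2. Over the tumors left out in turn, single libraries turned Alox12 (-0.31 to 4.86), Car2 (-2.39 to 1.97) and Rsad2 (-0.88 to 2.87) by replicate 5, Aldh1a3 (-0.47 to 4.14) and Igfbp2 (-0.03 to 1.71) by replicate 2, Gm10800 (-0.30 to 2.46) by replicate 6, and Atf3 (-1.09 to 0.24) and Jun (-0.62 to 0.05) by control replicate 11. The others ran from -0.03 to 0.07 for Dpf2, -0.01 to 0.37 for Dpf3, -0.04 to 0.08 for Brd7, -0.04 to 0.01 for Phf10, -0.12 to 0.08 for Smarca2, -0.06 to 0.07 for Smarcd1 and -0.02 to 0.07 for Smarce1. Where a call was lost for lack of control tumors or by the range term, the cause was not tested.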

Other observations

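Xist, transcribed from the inactive X chromosome, stood at 15.9, 40.7 and 19.7 CPM in Arid1b-fl replicates 1, 5 and 6 and at 3584 to 6226 CPM in the other 5. The Y-linked gene Ddx3y stood at 100, 84.2 and 89.5 CPM in the same 3 tumors and at 0 to 0.365 CPM in the other 5. In control replicates 2, 3 and 7 both were high, with Xist at 2553, 1174 and 655 CPM and Ddx3y at 68.6, 67 and 80.7 CPM. Control replicates 11 and 12 had Xist at 187 and 247 CPM with Ddx3y at 109 and 156 CPM. Control replicate 13 had Xist at 4964 CPM with Ddx3y at 1.98 CPM. Control replicate 7 is among the 4 control tumors of the mouse number range of the Arid1b-fl tumors. The labels give no sex, and sex was not a term in any fit.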
